A study of Mus musculus with 4 samples.

Results

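The genes described here encode AP-1, Atf3 and Egr transcription factors in mouse embryonic fibroblasts (MEFs) labelled WT or *Phf2* KO. *Phf2* is the gene of a putative histone demethylase with a Jumonji domain. The factor genes were taken by symbol from the deposited count table as 10 of its 24391 genes: *Jun*, *Junb*, *Jund*, *Fos*, *Fosb*, *Fosl1*, *Fosl2*, *Atf3*, *Egr1* and *Egr2*. These 10 were chosen by their values in *Phf2* KO against WT libraries of these same data, within each replicate number, so that contrast is a description for them, and no test of it counts as support. Of the 10, 9 passed the filter on low counts that left 13668 genes, and *Fosl1* did not.

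RNA was sequenced from 4 libraries of primary MEFs made from E13.5 embryos and held quiescent, with 2 libraries labelled WT and 2 labelled *Phf2* KO. All 4 carry the genotype Phf2 flox/flox, ERCre/+, in which Cre fused to an estrogen receptor domain (expressed from Rosa26) can remove the floxed part of *Phf2* once 4-hydroxytamoxifen (4-OHT) is given. Only the *Phf2* KO libraries bear the label Tamoxifen, and the WT libraries are described as noTamox. The treatment text (7 days with 0.5 µM 4-OHT, in medium holding 2% serum stripped with charcoal) nevertheless does not differ between the 4 libraries. The effects of 4-OHT, of active Cre and of the loss of *Phf2* cannot be told apart here. The labels do not name the embryos behind each library. The sex-linked genes below differ between the 2 libraries of each group, which therefore were not made from the same single embryo.

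Immediate early genes are transcribed within minutes of a growth factor, serum or stress signal, because the factors that switch them on, among them serum response factor, its Elk partners and CREB, are already present in the cell. Jun proteins pair with each other or with Fos proteins through a leucine zipper to form AP-1, which binds a short palindrome in the promoters and enhancers of genes for growth, matrix turnover and inflammation. Atf3 belongs to the same zipper superfamily and is induced by stress, and Egr proteins are zinc finger factors that bind GC-rich sites. In quiescent fibroblasts, serum addition is the classic trigger of most of these genes.

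Promoter sequence from RefSeq (GRCm38.p6) was given for 8 of the 10 genes, in 12 entries of 300 bases that run from 250 bases before the annotated start to 50 after it. *Fosl1* and *Egr1* had no entry. The promoters of *Fos* and *Junb*, whose *Phf2* KO libraries lay above the WT libraries, and of *Atf3*, which differed most between replicate numbers, are shown from 90 bases before the start to 20 from it, 5′ to 3′ on the gene's own strand, with a matched motif in capitals. They lie at chr12:85473800-85473909 (forward strand), chr8:84978729-84978838 (reverse strand) and chr1:191183314-191183423 (reverse strand).
Fos: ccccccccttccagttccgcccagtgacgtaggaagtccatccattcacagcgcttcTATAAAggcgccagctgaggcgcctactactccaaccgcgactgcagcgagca
Junb: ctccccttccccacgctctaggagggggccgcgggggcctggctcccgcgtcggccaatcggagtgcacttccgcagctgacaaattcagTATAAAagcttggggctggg
Atf3: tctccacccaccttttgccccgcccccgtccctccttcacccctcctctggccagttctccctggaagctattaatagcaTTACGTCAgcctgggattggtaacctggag

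The capitals in *Fos* mark the TATA motif TATAAA, which begins 33 bases before the annotated start, and those in *Junb* the same letters beginning at the annotated start itself. Those in *Atf3* mark TTACGTCA, one of a pair of forms (with its reverse complement TGACGTAA) that differ by 1 base from the cyclic AMP response element, beginning 10 bases before the start. Each motif was searched on both strands in all 32851 promoters of the table. TATAAA occurred in 13.6% of these promoters and the CRE-like letters in 0.499%. A CArG box, the binding site of serum response factor (CC, then 6 letters that are each A or T, then GG), stood in 4 of the 5 *Egr2* promoters and in 1.63% of all, and can share letters with TATAAA. The *Egr2* promoters are entries of 1 gene, so the 4 matches may not be separate sites. None of the 12 entries held an AP-1 site (TGACTCA or TGAGTCA, in 5.2% of all promoters), a full CRE (TGACGTCA, 1.79%) or the Egr site GCGTGGGCG (0.612%). A match is only a match of letters in this window.

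The libraries held 21094743 to 26094268 counts, so that 3 counts correspond to 0.116 to 0.145 CPM, the usual unit of a count relative to library size. CPM here were scaled by the trimmed mean of M values (TMM), with factors from 0.983 to 1.01. *Phf2* itself had 3244 counts in WT replicate 1, 1454 in *Phf2* KO replicate 1, 3680 in WT replicate 2 and 2158 in *Phf2* KO replicate 2. Its mean CPM in the *Phf2* KO libraries was 57.9% of that in WT, and the source of these remaining reads was not examined. The 2 numbers stood apart in sex: *Xist*, expressed from the inactive X, had 10042 and 8336 counts in number 1 and 3 and 12 counts in number 2, and the Y-linked gene *Ddx3y* had 6 and 10 counts in number 1 and 1271 and 1295 in number 2. Summed CPM of 22 macrophage markers was 4768 and 5299 in the WT and *Phf2* KO libraries of number 1 and 1033 and 1590 in those of number 2, with no marker at 0 in any library. All 22 were higher in number 1 in both groups, while 14 of 22 were higher in *Phf2* KO in number 1 and 22 of 22 in number 2. Summed CPM of 13 fibroblast markers was 69312 in WT 1 and 64634 in *Phf2* KO 1, and 76273 in WT 2 and 62582 in *Phf2* KO 2, with 6 of 13 higher in *Phf2* KO in number 1 and 2 of 13 in number 2. The part of either marker group in the ratios of *Phf2* KO to WT was not tested. The endothelial and epithelial markers summed to at most 24.1 and 1.46 CPM. In such bulk RNA, a change in the number of cells of a kind and a change in RNA per cell cannot be told apart.

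Levels were compared between genes per length, as RPKM (CPM divided by kilobases of exon), with exon lengths from the mm9 annotation. *Jund*, the Jun gene that resting cells keep on, stood first in all 4 libraries with 70.9 to 84.8 RPKM. *Jun*, the founding member, came next with 38.2 to 49.9. *Fosl2*, which encodes the Fos protein Fra-2, followed with 25.3 to 30.7, and its range overlapped that of *Egr1*, a growth factor-responsive zinc finger gene, at 22.2 to 35.7. *Junb*, a Jun gene known to restrain proliferation, had 19.5 to 30.9 RPKM and overlapped *Egr1* as well. *Atf3* had 8.39 to 21.7 and *Fos*, the partner that peaks early after stimulation, 6.93 to 12.0, and *Atf3* overlapped both *Junb* above it and *Fos* below it. *Fosb* and *Egr2*, the latter best known for myelination and hindbrain patterning, both stayed between 0.428 and 0.625 RPKM. *Fosl1*, which encodes Fra-1, had 4, 5, 7 and 2 counts, in the order WT 1, *Phf2* KO 1, WT 2 and *Phf2* KO 2, at or near the 3 counts that set the detection floor.

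**Figure D1:**
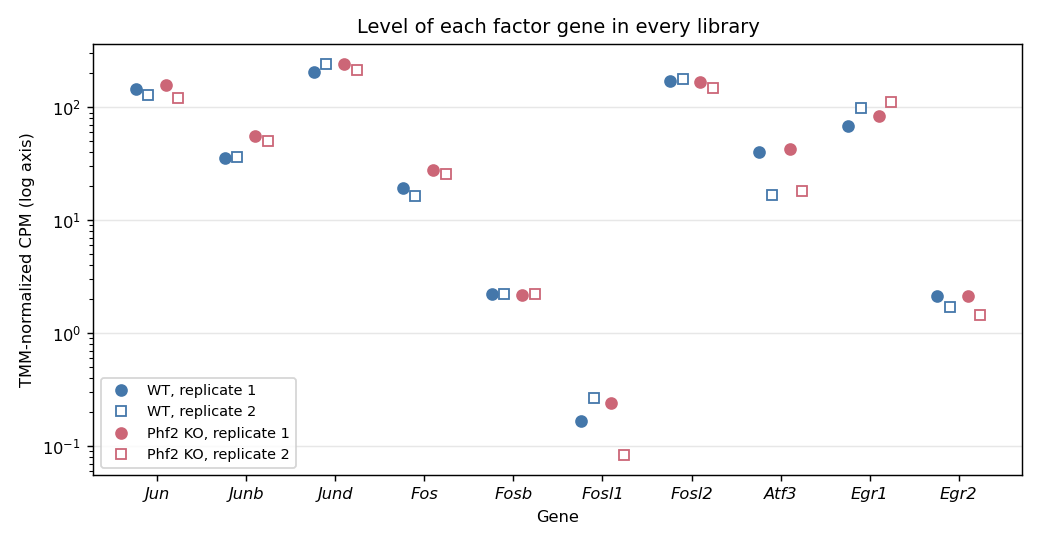
Level of the 10 genes in each library, as TMM-normalized CPM on a log axis; filled circles are replicate number 1, open squares number 2, blue WT and red *Phf2* KO. *Junb* and *Fos* have both red points above both blue ones, *Atf3* splits by replicate number instead, and *Fosl1* lies lowest. CPM are not divided by length, so heights are not compared between genes.

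The Jun family together had 136 to 166 RPKM per library and the Fos family 36.8 to 41.3, a ratio of 3.55 to 4.01. Within the Jun family, *Jund* made up 51.2% to 57.9%. *Junb* took 14.3% and 13.9% in the WT libraries and 18.6% and 19.7% in the *Phf2* KO libraries. Within the Fos family, *Fosl2* made up 76.6% and 80.0% in the WT libraries, against 69.3% and 68.8% in the *Phf2* KO libraries. The share of *Fos* was 21.6% and 18.0% in WT, against 29.0% and 29.4% in the *Phf2* KO libraries. *Fosl2* was thus the most abundant Fos transcript in every library, with a smaller share in both *Phf2* KO libraries.

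*Jun* lies on mm9 chromosome 4 at 94715725-94718913 and *Jund* on chromosome 8 at 73221638-73224515, and both are single-exon genes that an annotated gene on the opposite strand overlaps. *Jun* had 145 CPM in WT 1, 159 in *Phf2* KO 1, 130 in WT 2 and 122 in *Phf2* KO 2. *Jund* had 204, 244, 241 and 216 CPM in the same order. For both genes the *Phf2* KO library was the higher one in number 1 and the lower one in number 2, and the groups overlapped.

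The log2 ratio of *Phf2* KO to WT for *Jun* was 0.13 in number 1 (95% interval 0.06 to 0.20) and -0.09 in number 2 (-0.16 to -0.02). For *Jund* it was 0.26 (0.20 to 0.32) and -0.16 (-0.21 to -0.10). These intervals are exact binomial ones that cover the counting error of 2 libraries and not the spread between MEF cultures. A difference between the numbers leaves no residual degree of freedom with 1 library in each cell of the design, so it was not tested. Opposite signs in the 2 numbers were found in 4 of 9 genes (44.4%) and in 37.3% of the 13668 genes.

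*Junb*, a single exon on chromosome 8 at 87500811-87502617, was the other Jun gene. It had 35.3 and 36.4 CPM in WT 1 and WT 2, against 55.8 and 50.3 in *Phf2* KO 1 and *Phf2* KO 2, and both *Phf2* KO libraries lay above both WT libraries. Its log2 ratio was 0.66 (0.53 to 0.79) in number 1 and 0.47 (0.34 to 0.59) in number 2, which is 1.58-fold and 1.38-fold. The means were 35.8 ± 0.788 CPM in WT and 53.0 ± 3.92 in *Phf2* KO (SD, n = 2 each).

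*Fos* lies on chromosome 12 at 86814840-86818223. It had 19.4 and 16.3 CPM in the WT libraries of numbers 1 and 2, from 468 and 423 counts, and 28.1 and 25.5 CPM in the *Phf2* KO libraries, from 583 and 612 counts. As for *Junb*, the groups did not overlap. The log2 ratio was 0.54 (0.36 to 0.71) in number 1 and 0.64 (0.46 to 0.83) in number 2, or 1.45-fold and 1.56-fold, with means of 17.9 ± 2.20 CPM in WT and 26.8 ± 1.89 in *Phf2* KO (SD, n = 2 each).

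*Fosl2*, on chromosome 5 at 32438845-32460204, had 172, 168, 180 and 148 CPM in WT 1, *Phf2* KO 1, WT 2 and *Phf2* KO 2. Both *Phf2* KO libraries lay below both WT libraries, narrowly so in number 1. Its log2 ratio was -0.04 (-0.10 to 0.03) in number 1 and -0.28 (-0.34 to -0.22) in number 2. *Fosb*, which encodes a Fos protein induced strongly by repeated stimulation, had 54, 45, 58 and 54 counts in the same order, with ratios of -0.04 and 0.01 whose intervals both spanned 0. For *Fosl1*, both intervals spanned 0 as well.

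The 2 genes with both *Phf2* KO libraries above both WT libraries, *Junb* and *Fos*, compare with 15.5% of all genes tested, and the 1 in the opposite order, *Fosl2*, with 18.0%. Since these genes were selected on this contrast, nothing is read from the counts. The edgeR quasi-likelihood test across all genes, at an adjusted p (Benjamini-Hochberg) under 0.1, called none of the 9 between *Phf2* KO and WT and 0.00732% of the 13668, that is 1 gene. With the replicate number as a block, the same test called 3 of the 9 (*Junb*, *Fos* and *Egr1*, each higher in *Phf2* KO) and 11.0% of the 13668. The labels do not state that the numbers pair the libraries. By *Xist* and *Ddx3y*, the libraries of each number matched in sex. Across genes, the replicate 1 minus 2 difference correlated between WT and *Phf2* KO with r = 0.854. The fit without the block counts that difference as spread within a group. Without the block, at an unadjusted p under 0.05 the test held 211 genes higher and 365 lower. The fitted log2 fold change was 0.57 (SE 0.10) for *Junb*, 0.59 (SE 0.14) for *Fos* and -0.16 (SE 0.099) for *Fosl2*, and over the 9 genes its median was 0.05, beside 0.01 over all genes. Leaving out 1 library at a time moved *Junb* between 0.49 and 0.64 and *Fos* between 0.45 and 0.73.

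**Figure D2:**
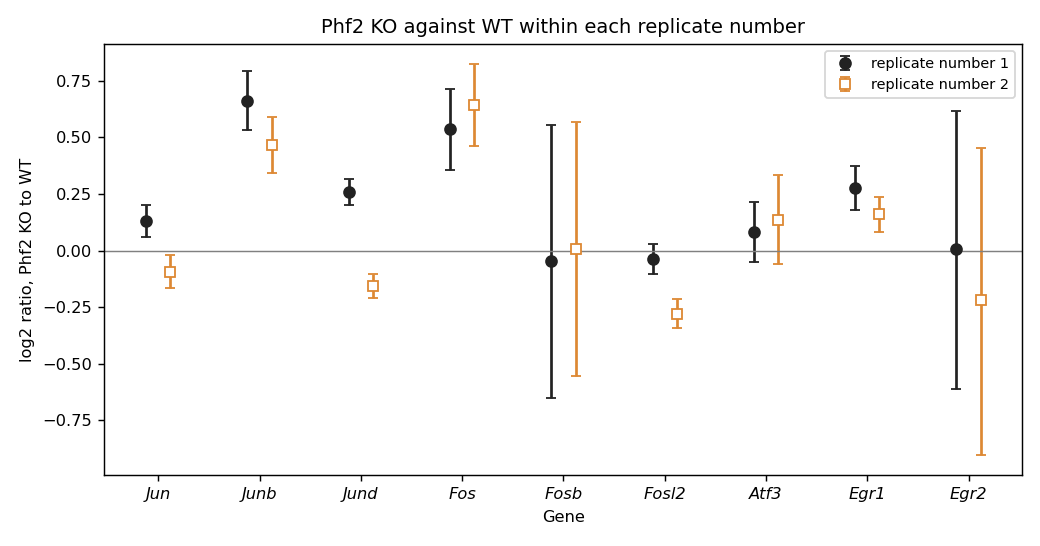
log2 ratio of *Phf2* KO to WT in replicate number 1 (filled circles) and number 2 (open squares) for the 9 genes that passed the filter; bars are 95% exact binomial intervals for counting error. *Junb*, *Fos* and *Egr1* lie above 0 in both numbers with intervals that exclude 0, and *Atf3* with intervals that span it. *Jun* and *Jund* lie above 0 in number 1 and below it in number 2.

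*Atf3* lies on the reverse strand of chromosome 1 at 192994175-193007219. It had 978 counts in WT 1 and 891 in *Phf2* KO 1, but 432 in WT 2 and 440 in *Phf2* KO 2, which is 40.6, 43.0, 16.6 and 18.3 CPM. Both libraries of number 1 lay above both of number 2, whatever the genotype. Its log2 ratio of *Phf2* KO to WT was 0.08 (-0.05 to 0.22) in number 1 and 0.14 (-0.06 to 0.33) in number 2, and both intervals spanned 0. Without *Phf2* KO replicate 1 the fitted *Phf2* KO change of *Atf3* was -0.64, and without WT replicate 1 it was 0.89. These fits have no replicate term, so with 1 library left out the change also takes in the difference between numbers. With all libraries and the replicate block, the change of *Atf3* was 0.11 (SE 0.10).

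*Egr1* lies on chromosome 18 at 35020861-35024638 and overlaps an annotated gene on the other strand. It had 68.7, 83.3, 99.2 and 111 CPM in WT 1, *Phf2* KO 1, WT 2 and *Phf2* KO 2. The *Phf2* KO library was the higher one in each number, with log2 ratios of 0.28 (0.18 to 0.37) and 0.16 (0.08 to 0.24), yet WT 2 exceeded *Phf2* KO 1, so the groups overlapped. Without WT replicate 1 its fitted change was -0.02, and without WT replicate 2 it was 0.48. As for *Atf3*, these values also take in the difference between numbers. With all libraries and the replicate block, the change of *Egr1* was 0.22 (SE 0.083). *Egr2*, on chromosome 10 at 66998223-67004936, had 51, 44, 44 and 35 counts in that order, and both of its ratios, 0.01 and -0.22, had intervals that spanned 0.

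The difference between replicate numbers was not used to choose the genes. It was tested with genotype in the same edgeR fit, which leaves 1 residual degree of freedom. The labels do not name the embryos or cultures behind the libraries. If the 2 libraries of a number share a culture, p-values of this test, here and below, do not cover the spread between cultures. *Atf3* was higher in number 1 by 1.26 on the log2 scale (SE 0.10, adjusted p = 8.9e-34), 2.44-fold in WT and 2.35-fold in *Phf2* KO. *Egr1* moved the other way, by -0.47 (SE 0.083, adjusted p = 2.7e-07), and was 1.44-fold higher in number 2 in WT and 1.33-fold in *Phf2* KO. *Jun* was higher in number 1 by 0.27 (SE 0.083, adjusted p = 0.0065), but without genotype in the fit the difference, 0.275 against 0.274 with it, had an adjusted p of 0.14. These 3 of 9 genes stand beside 26.2% of all genes called in that contrast, a share near that of the 9. The numbers also differ in sex and in the macrophage markers, whose summed CPM was 4.62-fold higher in number 1 in WT and 3.33-fold in *Phf2* KO. The part of either in the levels of *Atf3*, *Egr1* and *Jun* was not tested.

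**Figure D3:**
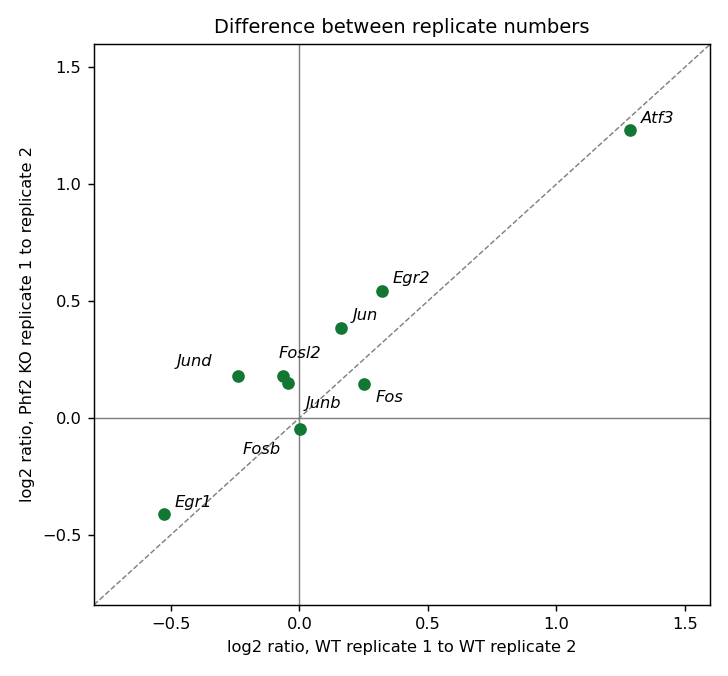
log2 ratio of replicate 1 to replicate 2 in the WT libraries (horizontal) and in the *Phf2* KO libraries (vertical) for the 9 genes; the dashed line marks equal ratios. *Atf3* lies far up the line and *Egr1* below 0 on both axes, with the other genes between them.

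Genes whose levels ran most alike over the 4 libraries were taken by the Euclidean distance of log2 CPM centred on each gene, among 12524 genes. Nearest to *Atf3* were *Osbpl8*, *Rab7b*, *Mndal*, *Rps6ka1* and *Rnf180*, at distances of 0.0374 to 0.0860. *Osbpl8* had 1876, 1682, 800 and 831 counts in WT 1, *Phf2* KO 1, WT 2 and *Phf2* KO 2, the same split by number. Nearest to *Egr1* were *Nr2f1*, *Zfp653*, *Banp*, *Hexdc* and *Gm3414*, at 0.0366 to 0.0489. Nearest to *Fos* were *Plxnb3*, *Arid5a*, *Olfml1*, *Dclk3* and *Clca3a1*, at 0.0756 to 0.163, and *Arid5a* had 324, 397, 291 and 389 counts. With 4 libraries, such likeness is a description only.

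The other genes of the pathway were read from 6 lists, and in the edgeR test of *Phf2* KO against WT none of their 99 tested genes was called. At an unadjusted p under 0.05 there were 9 of 99, beside 4.21% of all genes, and DESeq2 called 1, *Gadd45b*. With the replicate block 25 of the 99 were called, 12 higher and 13 lower, beside the 11.0% of all genes given above. The lists were chosen with earlier results of these data known, so these counts are a description and not a test of the lists. Of the genes named below, the block called *Dusp1*, *Maff*, *Mafk*, *Mapk14*, *Hbegf* and *Ddit4* higher. It called *Gadd45b*, *Klf10*, *Braf*, *Mmp3*, *Trib3* and *Vldlr* lower. *Atf6*, *Atf7*, *Nab1*, *Nab2*, *Elk4*, *Plau* and *Gdf15* were not called with it. Of 40 tested immediate early genes other than the 9, 23 had a log2 fold change above 0 and 17 below, with a median of 0.13. *Dusp1*, a phosphatase that switches MAP kinases off, had 900, 1572, 1915 and 2648 counts in WT 1, *Phf2* KO 1, WT 2 and *Phf2* KO 2, and its change was 0.74 (SE 0.38). It was higher in *Phf2* KO within each number and differed between number 1 and number 2 by -0.75 on the log2 scale (adjusted p = 4.5e-17 in the test of replicate numbers). With the replicate block, the change of *Dusp1* was 0.79 (adjusted p = 1.2e-17 in the edgeR test of *Phf2* KO against WT). The SEs of the listed genes are from the fit without the block, which counts the difference between numbers as spread within a group. *Gadd45b*, a stress-induced growth arrest gene, had 916, 463, 971 and 614 counts, with both *Phf2* KO libraries below both WT libraries. Its change was -0.65 (SE 0.11), with an unadjusted p of 0.0027 and an adjusted p of 0.999 in the edgeR test. With the replicate block, the adjusted p of *Gadd45b* in that test was 4.4e-09. *Klf10*, induced early by TGF-beta, had 360, 164, 267 and 222 counts and a change of -0.56 (SE 0.23).

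Among 18 tested dimer partners and inhibitors of AP-1, 8 lay above 0 and 10 below, with a median of -0.04. The small Maf genes *Maff* and *Mafk*, which lack an activation domain, had changes of 0.53 (SE 0.15) and 0.32 (SE 0.13). *Maff* had 415, 549, 557 and 709 counts, and in CPM both *Phf2* KO libraries lay above both WT libraries. *Atf6* and *Atf7* had changes of -0.15 and -0.20. *Nab1* and *Nab2*, the co-repressors that bind Egr factors, had 0.04 and -0.03.

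Upstream, of 17 serum response and MAP kinase genes, 5 lay above 0 and 12 below, with a median of -0.06. The kinase *Mapk14* had a change of 0.23, and *Braf* and *Elk4*, a partner of serum response factor, -0.24 and -0.29. Downstream, of 14 AP-1 target genes known in fibroblasts, 7 lay above 0 and 7 below. *Mmp3*, a matrix metalloproteinase, had 193, 86, 269 and 125 counts and a change of -0.97 (SE 0.23), lower in both *Phf2* KO libraries. *Hbegf* and *Plau* had changes of 0.27 and 0.20. *Plau*, the gene of urokinase, had 1746, 1721, 784 and 846 counts, and in the test of replicate numbers it was higher in number 1 by 1.25 on the log2 scale (adjusted p = 1.0e-42).

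Of 13 genes of the Atf4 and Atf3 stress response, 7 lay above 0 and 6 below, with a median of 0.02. *Ddit4*, an inhibitor of mTORC1 signalling, and *Gdf15*, a secreted stress cytokine, had changes of 0.32 and 0.29. *Trib3* and *Vldlr* had changes of -0.21 and -0.33. In the test of replicate numbers, 3 of the 13 genes were higher in number 1 and 1 lower, and of the 40 immediate early genes 4 were higher and 13 lower. Over all genes, 13.6% were higher and 12.6% lower, and the difference between the lists was not tested.

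**Figure D4:**
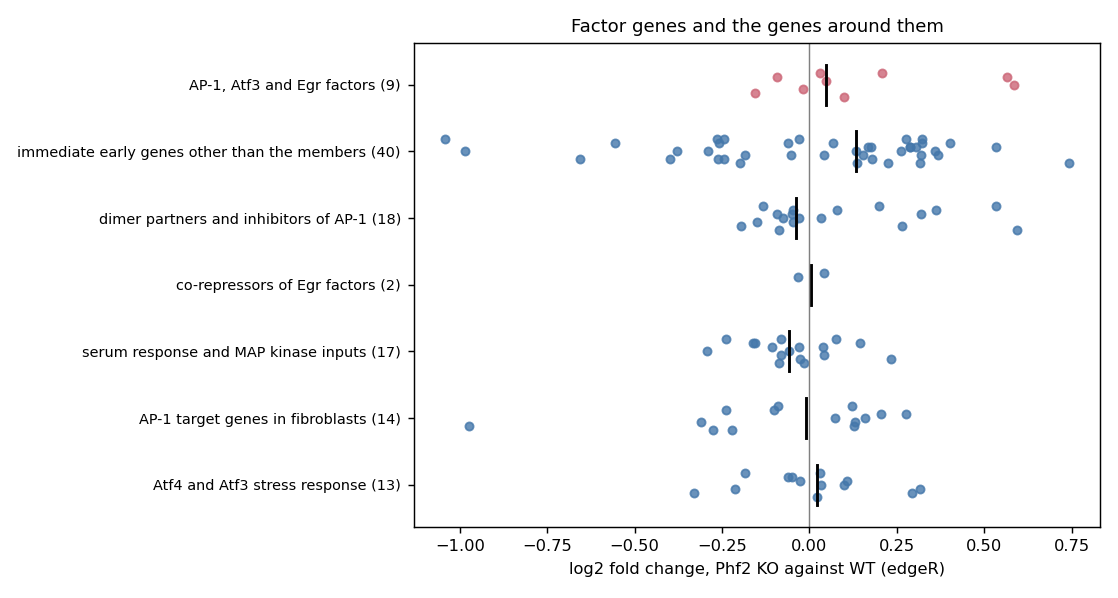
Fitted log2 fold change of *Phf2* KO against WT for the 9 factor genes (red) and for each tested gene of 6 lists around them (blue), with the number of genes in brackets and the median as a black bar; vertical offsets only separate points. List medians lie between -0.06 and 0.13, and none of the points was called at an adjusted p under 0.1 in the fit shown, which has no replicate block.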

How the data were processed

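RNA was measured by RNA-seq in 4 MEF libraries (2 WT, 2 *Phf2* KO). The authors trimmed single reads of 50 nt with Trim Galore, removed ribosomal reads with Bowtie2, mapped to mm9 with STAR in reverse-stranded mode and deposited raw counts per gene from featureCounts. Their versions, annotation and counting strand are not given in the sources used here, so reads of overlapping genes on opposite strands (*Jun*, *Jund*, *Fosl1*, *Egr1*) may not have been told apart. A second deposited table holds the authors' own DESeq2 comparison and was not used.

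The genes and lists were chosen with earlier results of these data known. Counts were read as deposited, and groups were taken from the labels. Genes were filtered by filterByExpr and scaled by TMM, and *Phf2* KO was tested against WT, and replicate 1 against 2, by edgeR 4.0.16 quasi-likelihood F-tests in R 4.3.3, with Benjamini-Hochberg adjustment over 13668 genes and calls at adjusted p under 0.1. All tests were two-sided, and the script was tested on simulated counts. Within a number, log2 ratios of CPM carry exact binomial (Clopper-Pearson) 95% intervals, for counting error only. DESeq2 1.42.0, limma-voom (limma 3.58.1), other scalings, filters and thresholds, a replicate block and leaving out each library were the alternatives. From each list were named all called genes and, at a mean count of at least 50, the 2 highest and 2 lowest by log2 fold change, and some genes that this rule names are not reported here. The 5 nearest genes were taken for *Fos*, *Egr1* and *Atf3* at a mean of at least 1 CPM, with a prior count of 2. Positions and exon lengths are from the mm9 (NCBIM37) annotation, and promoters from RefSeq GRCm38.p6, without conversion between builds. Figures were drawn with Matplotlib 3.10.9.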

Additional observations from a re-analysis of the deposited data

Results flagged for a closer look

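*Jun* and *Jund* changed direction between the replicate numbers. The log2 ratio of *Phf2* KO to WT for *Jun* was 0.13 in number 1 and -0.093 in number 2, and for *Jund* it was 0.26 and -0.16, with no counting interval spanning 0. These intervals cover counting error and not the spread between MEF cultures. Opposite signs in the 2 numbers were also found in 37.3% of the 13668 genes tested. With 1 library of each genotype per number, the difference was not tested.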

How the results depend on the processing

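The main edgeR test called 0 genes higher and 1 lower in *Phf2* KO (211 and 365 at an unadjusted p under 0.05). DESeq2 called 10 higher and 56 lower, 1 of them a listed gene, *Gadd45b* (-0.65, adjusted p = 0.034), and 1380 genes between replicate numbers. The call lower became 0 under limma-voom (352 lower at an unadjusted p under 0.05) and at an adjusted p under 0.05, and ranged from 0 to 0 when each library was left out in turn (157 to 378). Without the genotype term, 1445 genes were called between replicate numbers, and *Jun* was no longer among them (0.275 against 0.274 in the main test, adjusted p = 0.14), whereas *Atf3* and *Egr1* were called (adjusted p = 0.00082 and 0.060). The replicate numbers are not stated to pair the libraries. The replicate 1 minus 2 difference correlated between WT and *Phf2* KO with r = 0.854 across 11556 genes, which are not independent, and with the replicate block edgeR called 789 genes higher and 711 lower, 25 of the 99 listed genes among them (12 higher, 13 lower). Of 159 values of the factor genes under alternatives, 12 changed sign: *Jun* (-0.18 and -0.07), *Jund* (-0.05 and -0.04), *Fosb* (0.0045), *Atf3* (-0.64 and -0.42), *Egr1* (-0.02 and -0.01) and *Egr2* (0.09 and 0.15) with 1 library left out, and the *Egr2* ratio in number 1 under library size alone (-0.04). The fits with 1 library left out have no replicate term, so their values also take in the difference between replicate numbers. Depth limits *Fosl1* (2 to 7 counts), *Fosb* and *Egr2* most.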
